A study of Homo sapiens with 12 samples.

Results

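The aminoacyl-tRNA synthetases are the enzymes that load each amino acid onto its transfer RNA. Transcripts of 35 of their genes were followed here, 19 of the cytosolic set and 16 of the mitochondrial set, picked by gene name, out of 26357 gene names that the tables share. All 35 had recoverable reads and passed the filter on low values. WARS, the cytosolic tryptophanyl enzyme, is not among them. The cells were HMLE, an immortalised line of human mammary epithelial cells, in 4 groups of 3 libraries. HMLE-Twist cells, a derivative made with the transcription factor TWIST1 and labelled as having passed through an epithelial to mesenchymal transition (EMT), received 0.2 uM salinomycin or DMSO (mock) for 24 h. HMLE-pBp cells, which carry the vector and are labelled nonEMT, received 0.2 uM salinomycin or DMSO for the same 24 h. Salinomycin is a polyether antibiotic that carries potassium and other monovalent cations across membranes. The labels call the libraries biological triplicates and do not say how the cultures were separated, so p-values measure the spread between these samples.

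Each synthetase recognises 1 amino acid and the set of tRNAs that belongs to it, forms an aminoacyl-adenylate with ATP and passes the amino acid to the tRNA. The cytosol and the mitochondrion use separate enzymes for most amino acids, and all of them are encoded in the nucleus. GARS and KARS are exceptions, since in each case a single gene gives both the cytosolic and the mitochondrial enzyme. Mitochondria charge glutamine through an amidotransferase and not through a glutaminyl-tRNA synthetase. In the cytosol, DARS, EPRS, IARS, KARS, LARS, MARS, QARS and RARS sit together with 3 scaffold proteins in the multisynthetase complex. The other cytosolic enzymes are called free here, meaning only that they lie outside this complex. When an amino acid runs short, uncharged tRNA activates the kinase GCN2, which phosphorylates the initiation factor eIF2. The transcription factor ATF4 is then translated and binds C/EBP-ATF response elements, and many cytosolic synthetase genes are known ATF4 targets. PERK, the eIF2 kinase of the endoplasmic reticulum (ER), feeds into the same step.

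The C/EBP-ATF response element is shown first, because cytosolic synthetase genes are known targets of the factor that binds it and carry most of the results below. The element was searched for as TGATGNAA, and in its core form TGATGCAA, on both strands of RefSeq windows on GRCh38.p14 that run from 250 bases before a gene's start to 50 bases after it. Of the 35 genes, 29 had a window and 8 of these had 2, and AARS2, DARS, LARS, VARS, VARS2 and YARS had none. TGATGNAA occurred in 7 of 15 cytosolic genes (46.7%) and in 1 of 14 mitochondrial genes (7.14%), against 1217 of 27305 genes with a window (4.46%). The core form TGATGCAA occurred in 6 of the 15 cytosolic genes, in 0 of the 14 mitochondrial genes and in 295 of all 27305 genes (1.08%). The matching stretches are printed 5′ to 3′ on the strand of the gene, 30 bases each, with the match in capitals. TTGCATCA and TTTCATCA are matches that lie on the opposite strand:
AARS: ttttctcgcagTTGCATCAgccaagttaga
CARS: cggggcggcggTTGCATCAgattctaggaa
GARS: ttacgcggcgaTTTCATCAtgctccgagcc
IARS: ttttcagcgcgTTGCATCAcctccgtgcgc
MARS: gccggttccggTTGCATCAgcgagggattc
NARS: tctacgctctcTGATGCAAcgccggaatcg
TARS: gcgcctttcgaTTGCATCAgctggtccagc
YARS2: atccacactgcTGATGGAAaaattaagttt

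With the base of the start site counted as 0, the match began at -187 in AARS (chr16:70289675-70289704, minus strand), at -13 in IARS (chr9:92293692-92293721, minus strand), at -4 in MARS (chr12:57488053-57488082, plus strand) and at -2 in CARS (chr11:3057407-3057436, minus strand). It began at 2 in TARS (chr5:33440956-33440985, plus strand) and at 14 in NARS (chr18:57621804-57621833, minus strand), both inside the transcript. In GARS (chr7:30594834-30594863, plus strand) the match is TGATGAAA at -33 and lies in the second of its 2 windows. In YARS2 (chr12:32756076-32756105, minus strand) it is TGATGGAA at -197. MARS and QARS, which passed in opposite directions in the 2 lines, are given with the 250 bases before the start and the first 20 bases after it. The MARS stretch lies at chr12:57487818-57488087 on the plus strand and has the element across its start site. The QARS stretch lies at chr3:49104738-49105007 on the minus strand and has no match:
MARS: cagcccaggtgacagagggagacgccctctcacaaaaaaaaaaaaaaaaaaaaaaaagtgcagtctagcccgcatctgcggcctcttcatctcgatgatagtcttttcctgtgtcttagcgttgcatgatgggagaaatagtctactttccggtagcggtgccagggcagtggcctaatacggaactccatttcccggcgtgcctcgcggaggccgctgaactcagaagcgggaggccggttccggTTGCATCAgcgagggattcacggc
QARS: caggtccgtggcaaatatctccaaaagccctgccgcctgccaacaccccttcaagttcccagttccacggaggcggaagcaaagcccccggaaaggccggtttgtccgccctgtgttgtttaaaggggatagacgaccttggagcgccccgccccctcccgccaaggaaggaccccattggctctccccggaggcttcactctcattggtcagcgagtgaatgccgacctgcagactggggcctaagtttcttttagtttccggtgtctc

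Levels are given as FPKM, fragments per kilobase of transcript per megaread, rebuilt for all 12 libraries from recovered reads on 1 scale. Libraries held 18.02 to 26.95 megareads of recovered reads, and the 35 members had between 100 (PARS2) and 16065 (EPRS) of them per library. The labelled lines matched their markers. The summed level of 6 epithelial markers ran from 25.8 to 32.9 FPKM with salinomycin and from 29.2 to 30.3 FPKM with mock in HMLE-Twist, against 2260 to 2390 and 2520 to 2940 FPKM in HMLE-pBp. The sum of 5 mesenchymal markers ran from 4040 to 4820 and from 3010 to 3900 FPKM in HMLE-Twist, against 258 to 302 and 260 to 295 FPKM in HMLE-pBp. The sum of 3 measured leukocyte markers of 4 listed was 35 to 39.3 FPKM with salinomycin and 21.5 to 24.8 FPKM with mock in HMLE-Twist, and 11.9 to 12.8 and 9.83 to 11.2 FPKM in HMLE-pBp. That sum was higher with salinomycin in both lines. PTPRC and CD3E did not pass the filter on low values, and CD68 alone of the 3 did. CD3E was at 0 in every HMLE-Twist library and PTPRC in every HMLE-pBp library, and the part of this sum in the results was not tested. The sum of 3 endothelial markers stayed at or below 0.184 FPKM in every library. In such bulk libraries, fewer cells of a type and less RNA per cell cannot be told apart.

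Cytosolic synthetases were the abundant ones. In HMLE-Twist cells with salinomycin the highest member was GARS, the glycyl enzyme, at 187 ± 18.6 FPKM (SD, n = 3), followed by AARS at 123 ± 12.1 and MARS at 120 ± 4.73 FPKM, which lay within each other's spread. With mock in that line GARS, KARS, NARS and TARS stood at the top between 99.0 and 104 FPKM and did not differ beyond their spread. In HMLE-pBp, GARS led with salinomycin at 151 ± 22.7 FPKM, and MARS led with mock at 164 ± 2.97 FPKM. The mitochondrial enzymes ran lower, with the exception of IARS2, which reached 114 ± 15.5 FPKM in HMLE-pBp with mock. PARS2, VARS2 and MARS2 were the 3 lowest in both HMLE-Twist groups. The recovered length of VARS was 4.30 times the nearest reference transcript and that of VARS2 2.54 times, so the levels of these 2 genes are understated while their fold changes are not affected apart from the added 1 of the log scale.

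The summed level of 18 cytosolic members, VARS left out, was 1650, 1600 and 1490 FPKM in the salinomycin libraries of HMLE-Twist, against 1300, 1360 and 1180 FPKM in its mock libraries. In HMLE-pBp it was 1640, 1580 and 1450 FPKM with salinomycin, against 1350, 1430 and 1360 FPKM with mock. Every salinomycin library of a line lay above every mock library of that line. The sum of 15 mitochondrial members, VARS2 left out, was 223, 219 and 213 FPKM with salinomycin and 234, 224 and 222 FPKM with mock in HMLE-Twist, where the groups overlapped. In HMLE-pBp the same sum was 265, 298 and 292 FPKM with salinomycin, against 315, 352 and 347 FPKM with mock, with all treated libraries below.

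The first comparison asked how salinomycin changed the synthetase genes in HMLE-Twist cells. Of 19 cytosolic synthetases 8 were higher, 2 were lower and 9 did not pass, with a median log2 fold change of 0.26. Of the 16 mitochondrial genes 0 were higher, 1 was lower and 15 did not pass, with a median of -0.03; at an unadjusted p under 0.05, 3 of the 16 passed. Among all 11515 genes tested, 13.0% were higher and 13.4% lower (26.4% in all), with a median of -0.01. The 3 salinomycin libraries lay above all 3 mock libraries in 10 cytosolic and 3 mitochondrial genes, against 19.3% of all genes, and below them in 3 and 5, against 20.9% (40.2% in either direction). Calls use limma over all genes at a Benjamini-Hochberg adjusted p under 0.05, and each estimate carries its SE.

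**Figure D1:**
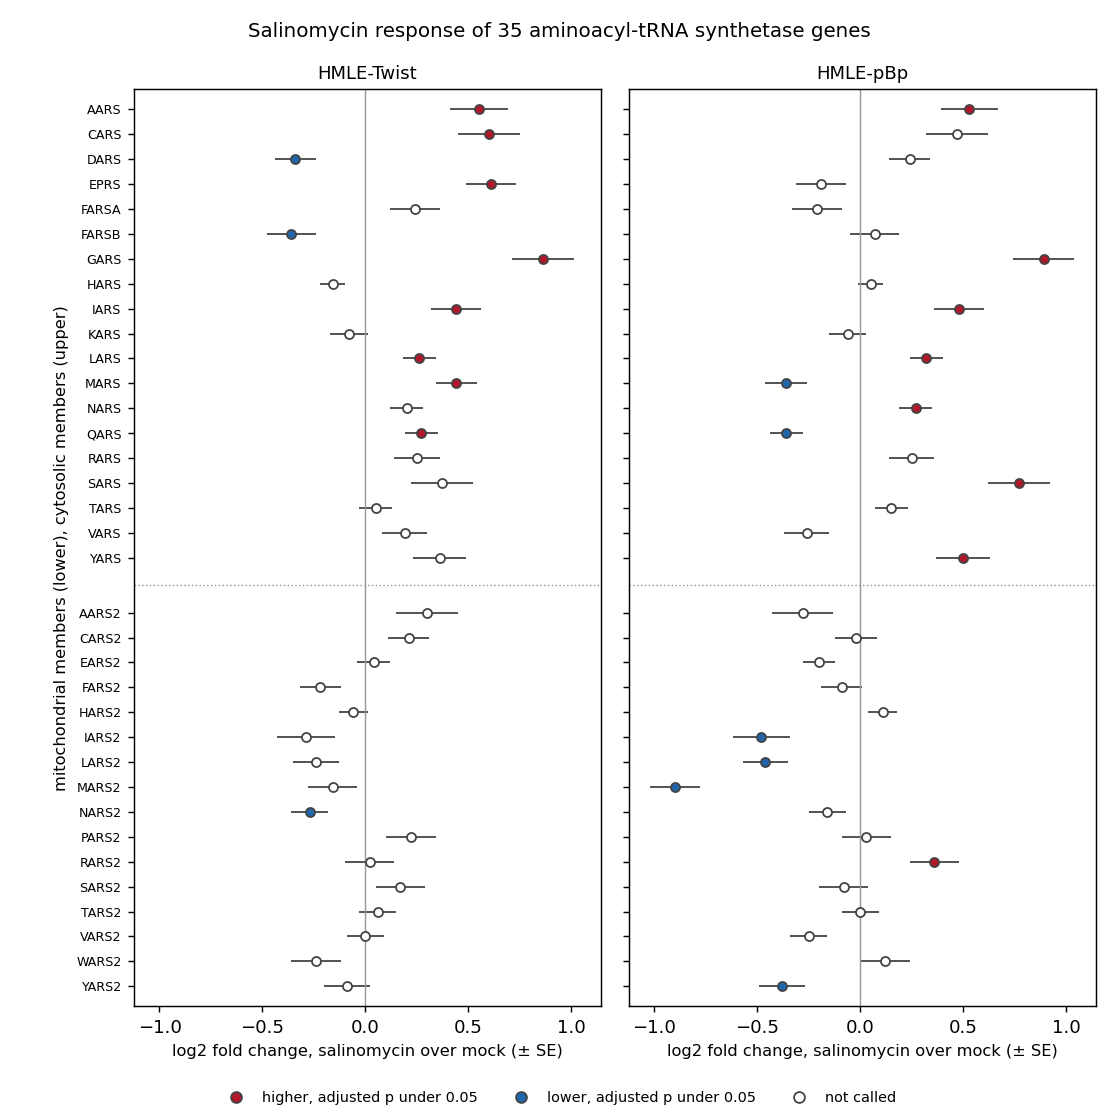
Log2 fold change of salinomycin over mock for each of the 35 genes (horizontal axis, whiskers: SE of the limma fit), in HMLE-Twist (left panel) and HMLE-pBp (right panel), with cytosolic genes above the dotted line and mitochondrial genes below it. Red points passed as higher, blue as lower and white did not pass; GARS lies farthest to the right in both panels (0.86 and 0.89), and MARS and QARS are red on the left and blue on the right.

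GARS had the largest estimate. Its level was 208, 181 and 172 FPKM with salinomycin and 107, 120 and 84.4 FPKM with mock in HMLE-Twist, a log2 fold change of 0.86 ± 0.15 (adjusted p = 0.00151). The groups were apart, and the lowest treated library lay well above the highest mock library. AARS, the alanyl enzyme, had 120, 136 and 112 FPKM with salinomycin and 72.3, 105 and 76.4 FPKM with mock, and rose by 0.55 ± 0.14 (adjusted p = 0.0116). CARS, the cysteinyl enzyme, had 56.7, 53.5 and 48.8 FPKM with salinomycin and 29.6, 46.9 and 30 FPKM with mock, and rose by 0.60 ± 0.15 (adjusted p = 0.0135). In both genes mock replicate 2 was the highest mock library and came close to the treated ones without reaching them.

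Of the multisynthetase complex in HMLE-Twist, 5 of 8 members rose and 1 fell. EPRS, a fused enzyme that charges glutamate and proline, had 112, 112 and 101 FPKM with salinomycin and 75.4, 73.3 and 64.3 FPKM with mock, and rose by 0.61 ± 0.12 (adjusted p = 0.00281). MARS, the methionyl enzyme, had 125, 121 and 115 FPKM with salinomycin and 78.5, 106 and 82.9 FPKM with mock, and rose by 0.44 ± 0.10 (adjusted p = 0.00543). Neither gene had a treated library as low as any mock library. IARS (isoleucine) rose by 0.44 ± 0.12 (adjusted p = 0.0149), QARS (glutamine) by 0.27 ± 0.08 (adjusted p = 0.0356) and LARS (leucine) by 0.26 ± 0.08 (adjusted p = 0.0369). DARS, the aspartyl enzyme, moved the other way, at 43.8, 42.3 and 40.1 FPKM with salinomycin against 58.4, 53.7 and 48.8 FPKM with mock, and fell by 0.34 on the log2 scale (SE 0.10, adjusted p = 0.0275). KARS (lysine) and RARS (arginine) did not pass, with estimates of -0.08 ± 0.09 and 0.25 ± 0.11.

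The remaining fall among the cytosolic genes of HMLE-Twist was FARSB, which encodes the beta subunit of the phenylalanyl enzyme. It had 36.0, 35.6 and 34.2 FPKM with salinomycin and 57.4, 40.5 and 40.4 FPKM with mock, an estimate of -0.36 ± 0.12 (adjusted p = 0.0381), with mock replicate 1 far above the other mock libraries. FARSA, the alpha subunit of the same enzyme, did not pass at 0.24 ± 0.12 (adjusted p = 0.179). The 1 mitochondrial gene called, NARS2 (asparagine), had 8.74, 8.38 and 8.06 FPKM with salinomycin and 11.8, 9.87 and 9.36 FPKM with mock, an estimate of -0.27 ± 0.09 (adjusted p = 0.0425). The other mitochondrial estimates ran from -0.29 (IARS2) to 0.30 (AARS2).

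The calls of EPRS, GARS and MARS in HMLE-Twist held under all 21 alternative settings, and the other 8 lost theirs when 1 library was left out. AARS did so without 1 library (adjusted p = 0.0514 without salinomycin replicate 2 of the line), CARS without 1 (0.0555 without its salinomycin replicate 1) and IARS without 2 (up to 0.0614, without salinomycin replicate 1). QARS lost the call without any of 6 libraries (up to 0.105, without salinomycin replicate 1) and LARS without any of 7 (up to 0.133, without salinomycin replicate 2). FARSB lost it without any of 7 (up to 0.113), DARS without any of 5 (up to 0.1) and NARS2 without any of 10 (up to 0.14), each highest without salinomycin replicate 3. Without salinomycin replicate 1 the count of cytosolic genes called higher was 4, and without replicate 2 it was also 4. The count of those called lower was 0 without any of the 3 salinomycin libraries of the line. Blocking on the replicate number within each line, which pairs a treated with a mock library, gave 12 cytosolic genes higher and 3 lower, and 1 mitochondrial gene higher and 4 lower. The cytosolic genes added by the block were HARS (lower, adjusted p = 0.0448) and NARS (0.032), RARS (0.0317), SARS (0.00621) and YARS (0.00429), all 4 higher. The mitochondrial genes added were AARS2 (higher, 0.0163) and FARS2 (0.0366), IARS2 (0.00633) and LARS2 (0.0333), all 3 lower.

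The same question was put to HMLE-pBp cells. Here 7 of 19 cytosolic genes were higher, 2 were lower and 10 did not pass, with a median log2 fold change of 0.24. Of the 16 mitochondrial genes 1 was higher, 4 were lower and 11 did not pass, with a median of -0.12. Of all genes tested 9.67% were higher and 9.33% lower in this line (19.0% in all), with a median of -0.01. The salinomycin libraries lay above all mock libraries in 10 cytosolic and 1 mitochondrial genes, against 20.4% of all genes, and below them in 4 and 7, against 21.1% (41.5% in either direction). Free cytosolic enzymes accounted for 5 of the 7 rises, and 2 of the 8 complex members rose while 2 fell.

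GARS again had the largest estimate, at 175, 146 and 131 FPKM with salinomycin and 87.8, 86.7 and 67.8 FPKM with mock in HMLE-pBp, by 0.89 ± 0.15 (adjusted p = 0.00217). SARS, the seryl enzyme, had 78.6, 60.9 and 55.8 FPKM with salinomycin and 42.5, 39.1 and 31.6 FPKM with mock, and rose by 0.77 ± 0.15 (adjusted p = 0.00494). In both genes replicate 1 was the highest of the treated libraries, and no library of one group reached the other. AARS had 85.8, 75.2 and 70.1 FPKM with salinomycin and 56.1, 55.6 and 47.8 FPKM with mock, and rose by 0.53 ± 0.14 (adjusted p = 0.0207). YARS, the tyrosyl enzyme, rose by 0.50 ± 0.13 (adjusted p = 0.0222) and NARS, the cytosolic asparaginyl enzyme, by 0.27 ± 0.08 (adjusted p = 0.0429). In the complex, IARS rose by 0.48 ± 0.12 (adjusted p = 0.0154) and LARS by 0.32 ± 0.08 (adjusted p = 0.0206).

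MARS and QARS fell in HMLE-pBp. MARS had 131, 124 and 127 FPKM with salinomycin and 160, 165 and 166 FPKM with mock, an estimate of -0.36 ± 0.10 (adjusted p = 0.0232). QARS had 84.8, 96.9 and 87.7 FPKM with salinomycin and 105, 118 and 124 FPKM with mock, an estimate of -0.36 ± 0.08 (adjusted p = 0.0131). All treated libraries lay below all mock libraries in both genes. EPRS, at 112, 116 and 105 FPKM with salinomycin and 102, 143 and 138 FPKM with mock, overlapped between the groups and did not pass (-0.19 ± 0.12, adjusted p = 0.283).

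Among the mitochondrial enzymes of HMLE-pBp the methionyl gene moved most. MARS2 had 4.67, 5.83 and 5.63 FPKM with salinomycin and 11, 10.8 and 10.8 FPKM with mock, and fell by 0.90 on the log2 scale (SE 0.12, adjusted p = 0.000439). IARS2 (isoleucine) had 66.2, 93.1 and 84.6 FPKM with salinomycin and 96.0, 125 and 121 FPKM with mock, an estimate of -0.48 ± 0.14 (adjusted p = 0.0294). The groups did not overlap in either gene, and replicate 1 was the lowest library of IARS2 in both. LARS2 (leucine) fell by 0.46 (SE 0.11, adjusted p = 0.0128) and YARS2 (tyrosine) by 0.38 (SE 0.11, adjusted p = 0.0308). RARS2 (arginine) was the 1 that rose, at 22.0, 16.4 and 17.1 FPKM with salinomycin and 15.3, 13.6 and 13.5 FPKM with mock, by 0.36 ± 0.12 (adjusted p = 0.0484).

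The calls of GARS, SARS and MARS2 in HMLE-pBp held under all 21 alternatives, and the other 11 lost theirs when 1 library was left out. Without mock replicate 3 of the line AARS reached an adjusted p of 0.0916, IARS 0.0713 and QARS 0.0676, each lost without 2 libraries, LARS 0.0866 and MARS 0.0823, each lost without 4, and YARS 0.102, lost without 3. LARS2 lost its call without mock replicate 2 (0.0527). Without salinomycin replicate 1 IARS2 reached 0.115 (lost without 3 libraries), YARS2 0.0977 (without 5) and RARS2 0.175 (without 8), and without salinomycin replicate 2 NARS reached 0.132 (without 8). The count of cytosolic genes called higher was 2 without mock replicate 3 and also 2 without salinomycin replicate 1, and the count of mitochondrial genes called lower was 1 without mock replicate 2, 2 without mock replicate 3 and 2 without salinomycin replicate 1. With the replicate number as a block within each line 10 cytosolic genes were higher and 3 lower, and 1 mitochondrial gene was higher and 6 lower. The block added CARS (0.0164), DARS (0.017) and RARS (0.0348) as higher, and VARS (0.034), AARS2 (0.0224) and VARS2 (0.0204) as lower.

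**Figure D2:**
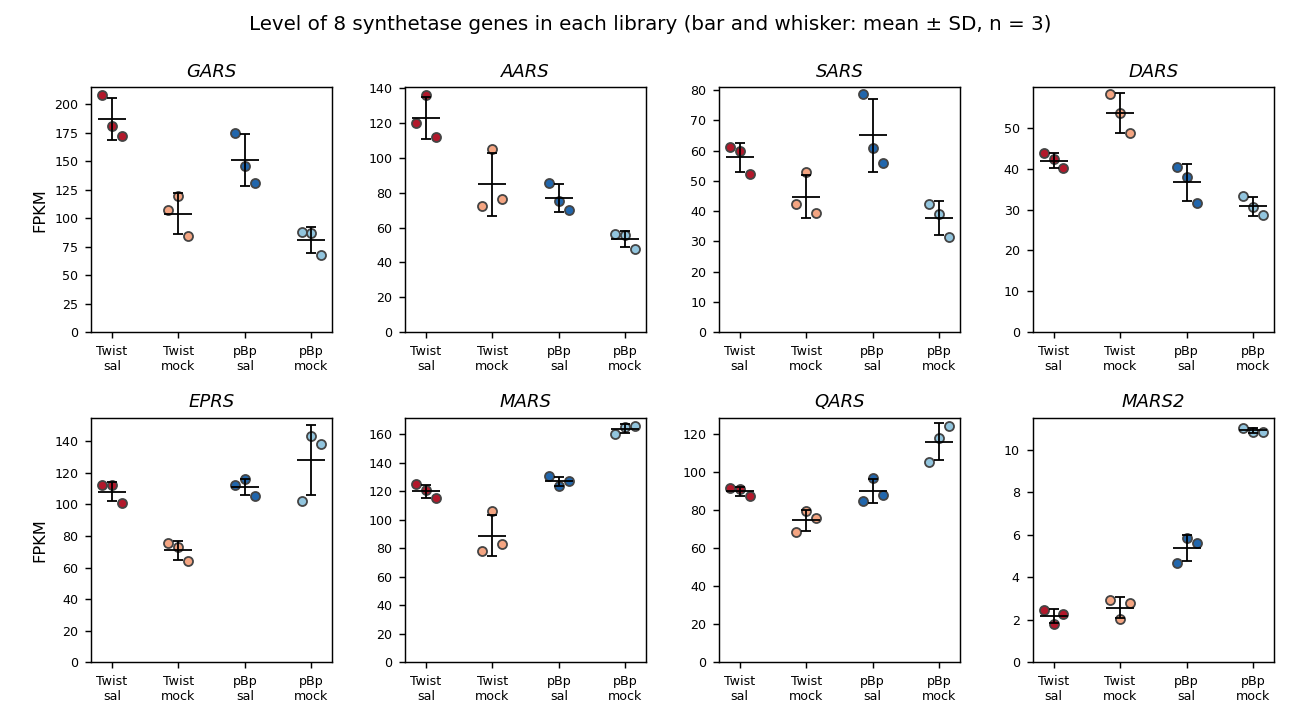
FPKM (vertical axes, from 0) of 8 synthetase genes in each of the 12 libraries, in the order HMLE-Twist salinomycin, HMLE-Twist mock, HMLE-pBp salinomycin and HMLE-pBp mock; points are libraries and bars with whiskers are the mean ± SD of 3. GARS and AARS are higher with salinomycin in both lines, MARS and QARS are higher in HMLE-Twist and lower in HMLE-pBp, and MARS2 drops to a mean of 5.38 FPKM with salinomycin in HMLE-pBp, against 10.9 FPKM with mock.

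Set side by side, AARS, GARS, IARS and LARS passed as higher in both lines, and MARS and QARS as higher in HMLE-Twist and lower in HMLE-pBp. Without the replicate block, FARSA, HARS, KARS, RARS, TARS and VARS passed in neither line, and 10 of the 16 mitochondrial genes did so as well. With the block within each line, HARS and FARS2 passed in HMLE-Twist, VARS and VARS2 in HMLE-pBp, and RARS in both. AARS2 then passed as higher in HMLE-Twist (adjusted p = 0.0163) and as lower in HMLE-pBp (adjusted p = 0.0224). Whether a response differed between the lines was tested as the difference of the 2 log2 fold changes, HMLE-Twist minus HMLE-pBp. It passed for 4 of 19 cytosolic genes, 3 higher and 1 lower, and for 1 of 16 mitochondrial genes, against 13.7% of all genes (7.08% higher and 6.6% lower). All 4 cytosolic genes belong to the multisynthetase complex, and of the 11 free enzymes 0 passed in limma at the adjusted threshold and 4 at an unadjusted p under 0.05. This split did not hold with the replicate number as a block within each line, where 4 free enzymes passed (FARSA, FARSB, SARS and VARS). The 5 of 35 genes called lie close to the share of all genes.

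MARS differed by 0.80 ± 0.14 (adjusted p = 0.00408), with 0.44 in HMLE-Twist and -0.36 in HMLE-pBp. EPRS differed by 0.79 ± 0.17 (adjusted p = 0.0107), with 0.61 and -0.19, and QARS by 0.63 ± 0.12 (adjusted p = 0.00714), with 0.27 and -0.36. With salinomycin these 3 genes stood at like levels in the lines, MARS at 120 ± 4.73 FPKM in HMLE-Twist and 127 ± 3.19 in HMLE-pBp, EPRS at 108 ± 6.15 and 111 ± 5.26, and QARS at 89.9 ± 2.30 and 89.8 ± 6.32 (SD, n = 3). With mock they were far apart, MARS at 89.0 ± 14.5 FPKM in HMLE-Twist and 164 ± 2.97 in HMLE-pBp, EPRS at 71.0 ± 5.93 and 128 ± 22.4, and QARS at 74.6 ± 5.47 and 116 ± 9.63. DARS differed by -0.58 ± 0.14 (adjusted p = 0.0228), with -0.34 in HMLE-Twist and 0.24 in HMLE-pBp. MARS2 differed by 0.74 ± 0.17 (adjusted p = 0.0151), with -0.16 in HMLE-Twist and -0.90 in HMLE-pBp.

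The differences of EPRS, MARS, QARS and MARS2 were called under every alternative run for them. DARS lost the call without any of 5 libraries, at most to an adjusted p of 0.0653 without mock replicate 3 of HMLE-pBp, and also without HMLE-Twist mock replicate 2 (0.0525), HMLE-Twist salinomycin replicate 3 (0.0638), HMLE-pBp mock replicate 2 (0.0548) and HMLE-pBp salinomycin replicate 2 (0.0531). With the replicate number as a block within each line 5 cytosolic genes were higher and 3 lower, and 2 mitochondrial genes were higher and 1 lower. The block added FARSA (0.0304), VARS (0.0189) and AARS2 (0.00586) as higher and FARSB (0.0353), SARS (0.0272) and RARS2 (0.0268) as lower. For AARS, GARS, IARS and LARS the difference was 0.02 ± 0.19, -0.03 ± 0.21, -0.04 ± 0.17 and -0.06 ± 0.12, with 95% intervals of -0.40 to 0.44, -0.49 to 0.43, -0.40 to 0.33 and -0.31 to 0.20.

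Promoter matches were set beside these responses as a description, against 13.0% of all genes higher and 13.4% lower in HMLE-Twist and 9.67% and 9.33% in HMLE-pBp. In HMLE-Twist 5 of the 7 cytosolic genes with TGATGNAA rose (AARS, CARS, GARS, IARS and MARS) and 0 fell, with a median of 0.44, while of the 8 without it 2 rose (EPRS and QARS) and 1 fell, with a median of 0.24. In HMLE-pBp 4 of the 7 rose (AARS, GARS, IARS and NARS) and 1 fell (MARS), with a median of 0.47, while of the 8 without it 1 rose (SARS) and 1 fell (QARS), with a median of -0.01. Of the genes with the element, AARS, CARS and IARS in HMLE-Twist and AARS, IARS, MARS and NARS in HMLE-pBp lost their call without single libraries, as given above. CARS just missed the threshold in HMLE-pBp (0.47 ± 0.15, adjusted p = 0.0513). TARS, the threonyl enzyme, carries the element and passed in neither line, at 0.05 ± 0.08 in HMLE-Twist and 0.15 ± 0.08 in HMLE-pBp.

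Cytosolic and mitochondrial enzymes of the same amino acid could be paired 15 times, with EPRS used against both EARS2 (glutamate) and PARS2 (proline). FARS2 (phenylalanine) was paired with FARSA and not with FARSB, and the choice of subunit sets the order. In HMLE-Twist FARS2 stood at -0.22, FARSA at 0.24 and FARSB at -0.36. In HMLE-pBp FARS2 stood at -0.09, FARSA at -0.21 and FARSB at 0.07. The cytosolic gene had the higher estimate in 13 of 15 pairs in HMLE-Twist, with a median gap of 0.39 on the log2 scale, and in 10 of 15 in HMLE-pBp, with a median gap of 0.44. Isoleucine gave the widest gap in both lines, with IARS at 0.44 and IARS2 at -0.29 in HMLE-Twist, and IARS at 0.48 and IARS2 at -0.48 in HMLE-pBp. For methionine in HMLE-pBp, MARS and MARS2 both passed as lower. Both estimates were also negative there for VARS and VARS2 (-0.26 and -0.25), EPRS and EARS2 (-0.19 and -0.2), and FARSA and FARS2 (-0.21 and -0.09). None of these passed without the replicate block. With the block within each line VARS and VARS2 passed as lower (adjusted p = 0.034 and 0.0204). HARS and HARS2, the histidyl pair, whose promoter windows overlap head to head, passed in neither line without the block. With it HARS passed as lower in HMLE-Twist (adjusted p = 0.0448). The gaps are descriptions, as the pairs were not tested one against the other.

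**Figure D3:**
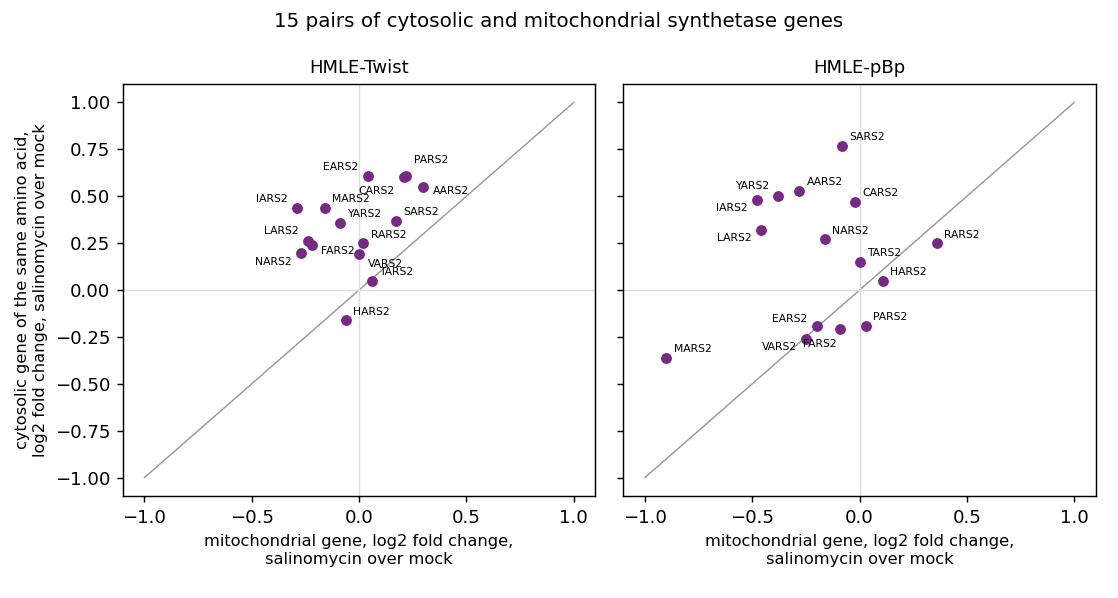
Log2 fold change of salinomycin over mock of the mitochondrial gene (horizontal axis) against that of the cytosolic gene of the same amino acid (vertical axis), for 15 pairs named by the mitochondrial gene, in HMLE-Twist (left) and HMLE-pBp (right). FARS2 is paired with FARSA, and FARSB is not drawn. On the diagonal both are equal; 13 of 15 points lie above it in HMLE-Twist and 10 of 15 in HMLE-pBp, where MARS2 stands alone at the far left at -0.90.

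The lines were then compared with each other. These comparisons use the same libraries as the responses above, so their values are not independent of them. With salinomycin in both lines, 1 cytosolic gene was higher in HMLE-Twist and 3 were lower, and 1 mitochondrial gene was higher and 7 were lower, against 31.1% of all genes higher and 32.1% lower (63.2% in all). With mock in both lines, 3 cytosolic genes were higher and 6 lower, and 1 mitochondrial gene was higher and 11 lower, against 35.9% higher and 37.4% lower (73.3% in all). With salinomycin the HMLE-Twist libraries lay above all HMLE-pBp libraries in 3 cytosolic and 1 mitochondrial genes, against 34.9% of all genes, and below them in 4 and 8, against 34.8% (69.7% in either direction). With mock they lay above in 3 and 1, against 36.6%, and below in 6 and 12, against 37.3% (73.9% in either direction). The median log2 difference of the mitochondrial set was -0.23 with salinomycin and -0.45 with mock, and that of the cytosolic set -0.04 and -0.09, while all genes lay at 0.01 and -0.01.

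With mock the widest gap was that of MARS2, while with salinomycin the estimates of IARS2 and VARS2 lay farther from 0. MARS2 had 2.45, 1.82 and 2.29 FPKM in HMLE-Twist and 4.67, 5.83 and 5.63 FPKM in HMLE-pBp with salinomycin, a log2 difference of -1.0 ± 0.12 (adjusted p = 1.07e-05). With mock it had 2.92, 2.02 and 2.81 FPKM in HMLE-Twist and 11, 10.8 and 10.8 FPKM in HMLE-pBp, a difference of -1.74 ± 0.12 (adjusted p = 4.73e-08). Every HMLE-Twist library lay below every HMLE-pBp library. IARS2 had 37.5, 36.8 and 33.0 FPKM in HMLE-Twist and 66.2, 93.1 and 84.6 FPKM in HMLE-pBp with salinomycin (-1.15 ± 0.14, adjusted p = 1.22e-05), and 49.6, 42.8 and 39.6 FPKM against 96.0, 125 and 121 FPKM with mock (-1.35 ± 0.14, adjusted p = 2.18e-06). VARS2 (valine) differed by -1.05 ± 0.09 with salinomycin (adjusted p = 5.13e-07) and by -1.31 ± 0.09 with mock (adjusted p = 5.22e-08). Both genes were lower in HMLE-Twist in every library.

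RARS2 was the mitochondrial exception, at 27.7, 28.6 and 24.4 FPKM in HMLE-Twist and 22.0, 16.4 and 17.1 FPKM in HMLE-pBp with salinomycin, a difference of 0.52 ± 0.12 (adjusted p = 0.00169). With mock it had 27.9, 27.7 and 23.8 FPKM in HMLE-Twist and 15.3, 13.6 and 13.5 FPKM in HMLE-pBp, a difference of 0.86 ± 0.12 (adjusted p = 2.53e-05). HARS2, NARS2, TARS2 and YARS2 were lower in HMLE-Twist under both treatments, with differences between -0.33 and -0.63 with salinomycin and between -0.30 and -0.63 with mock. AARS2, EARS2, LARS2 and SARS2 passed as lower with mock, between -0.34 and -0.72, and did not pass with salinomycin, between -0.09 and -0.24. With all libraries and no block, the difference of responses passed for none of them (adjusted p from 0.0936 to 0.351). With salinomycin LARS2 passed without HMLE-pBp salinomycin replicate 1 (0.00146) and SARS2 without HMLE-Twist mock replicate 1 (0.0371).

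**Figure D4:**
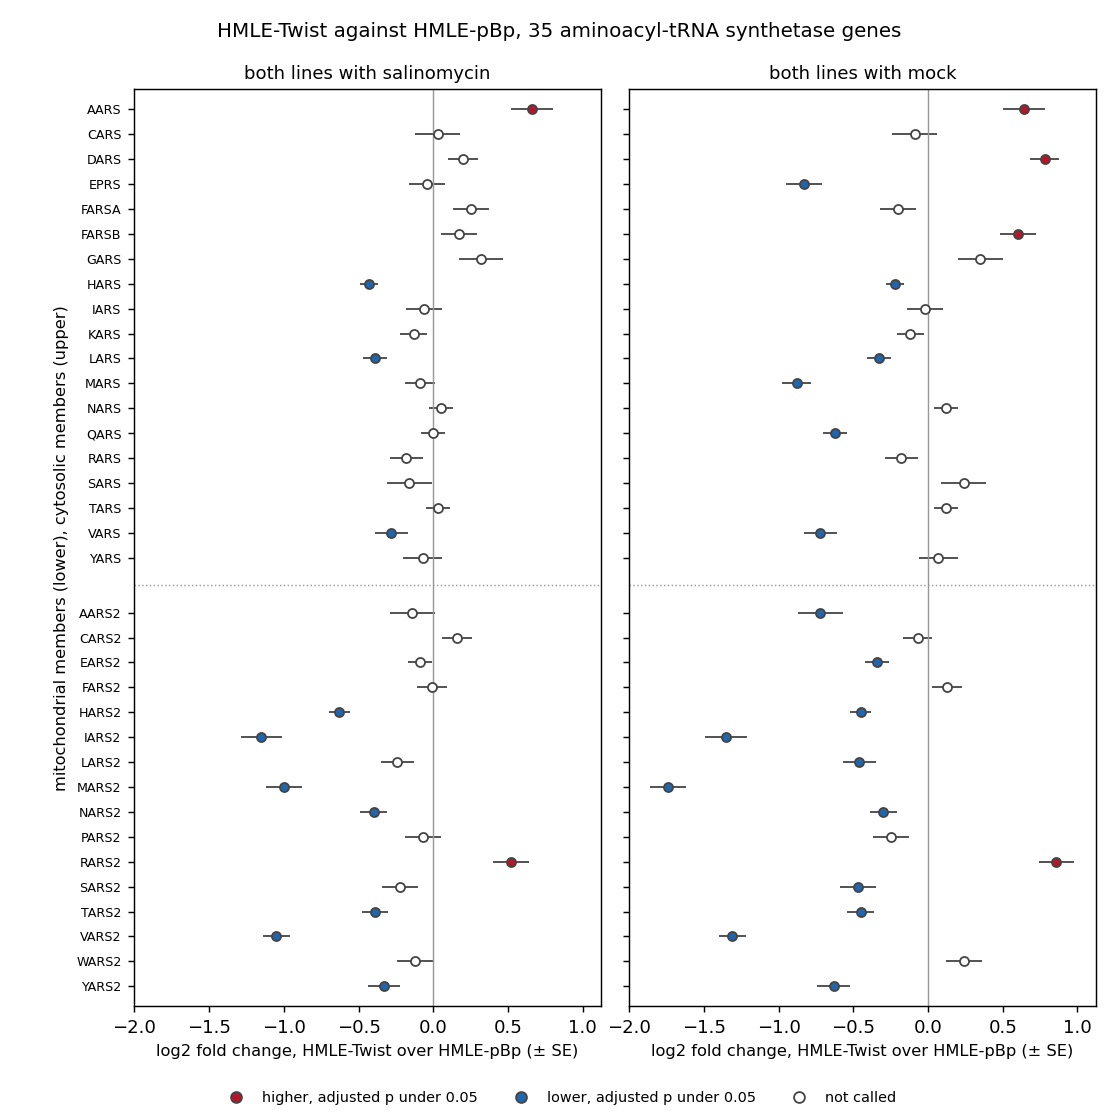
Log2 fold change of HMLE-Twist over HMLE-pBp for each of the 35 genes (horizontal axis, whiskers: SE of the limma fit), with salinomycin in both lines (left panel) and with mock in both lines (right panel), drawn and coloured as in the plot of the salinomycin response. Most mitochondrial genes lie left of 0, down to -1.15 (IARS2) on the left and -1.74 (MARS2) on the right, and EPRS, MARS and QARS are near 0 on the left and between -0.62 and -0.88 on the right.

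Of the cytosolic genes, AARS was higher in HMLE-Twist under both treatments, by 0.66 ± 0.14 with salinomycin (adjusted p = 0.00108) and by 0.64 ± 0.14 with mock (adjusted p = 0.00105). HARS, LARS and VARS were lower under both, at -0.43, -0.39 and -0.28 with salinomycin and -0.22, -0.33 and -0.72 with mock. EPRS, MARS and QARS passed as lower with mock, at -0.83 ± 0.12, -0.88 ± 0.10 and -0.62 ± 0.08, and did not pass with salinomycin, at -0.04 ± 0.12, -0.09 ± 0.10 and 0.00 ± 0.08. DARS and FARSB were higher with mock, by 0.78 ± 0.10 (adjusted p = 2.08e-05) and 0.60 ± 0.12 (adjusted p = 0.000465), and stood at 0.20 ± 0.10 and 0.17 ± 0.12 with salinomycin. The changes of line difference between the treatments are the differences of responses tested above, which passed for EPRS, MARS, QARS, DARS and MARS2 and not for FARSB. All 21 calls with mock held under every alternative run for them, and so did 10 of the 12 with salinomycin. VARS lost its call without any of 9 libraries (up to an adjusted p of 0.154, without HMLE-Twist salinomycin replicate 2) and YARS2 without any of 3 (up to 0.0696, without HMLE-Twist salinomycin replicate 1). Of the genes not called, 9 with mock and 6 with salinomycin were called under some alternative. GARS just missed with mock (0.35 ± 0.15, adjusted p = 0.0504) and was called higher without any of 4 libraries (down to 0.0098). The replicate block across lines added GARS (0.00321), SARS (0.0486) and WARS2 (0.0223) as higher with mock. With salinomycin it added DARS (0.015), FARSA (0.0257) and GARS (0.00701) as higher.

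The genes around the synthetases were described from 5 lists. Amino acid response genes, the known targets of ATF4 in amino acid supply and stress, rose with salinomycin in 19 of 22 tested in HMLE-Twist (median 0.91) and in 11 of 22 in HMLE-pBp (median 0.52), and 0 fell in either line, against 13.0% and 9.67% of all genes higher. At an unadjusted p under 0.05, 20 and 14 passed in any direction. In HMLE-Twist mock replicate 2 was the highest mock library in 17 of the 22 genes (77.3%), against 23.2% of all genes, and without it the count that rose in that line was 19 and in HMLE-pBp 12. Its part in the results was not tested. ATF4 itself had 314, 305 and 273 FPKM with salinomycin in HMLE-Twist and averaged 297 ± 21.5, against 194 ± 34.0 FPKM with mock, and rose by 0.62 ± 0.15 (adjusted p = 0.00829). In HMLE-pBp it averaged 243 ± 40.5 and 161 ± 22.2 FPKM and rose by 0.58 ± 0.15 (adjusted p = 0.0178). ASNS, asparagine synthetase, averaged 104 ± 11.3 and 39.1 ± 20.5 FPKM in HMLE-Twist, where mock replicate 2 had 62.8 FPKM and the others 26.8 and 27.7, and 114 ± 15.2 and 42.8 ± 7.51 FPKM in HMLE-pBp, and rose by 1.5 ± 0.26 and 1.40 ± 0.26. The difference between the lines did not pass for ATF4 (0.04, 95% interval -0.41 to 0.49) or ASNS (0.10, -0.71 to 0.91).

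XPOT, which exports tRNA from the nucleus, rose by 0.69 ± 0.11 in HMLE-Twist (adjusted p = 0.000848) and by 0.38 ± 0.11 in HMLE-pBp (adjusted p = 0.0297). DDIT3, the stress factor CHOP, rose by 1.03 ± 0.35 in HMLE-Twist (adjusted p = 0.046) and by 1.85 ± 0.35 in HMLE-pBp (adjusted p = 0.0039). In HMLE-pBp it had 52.7 FPKM in salinomycin replicate 1, against 21.6 and 17.5 in the other treated libraries. PYCR1, the last enzyme of proline synthesis, rose most in HMLE-Twist, by 2.22 ± 0.19. Of all genes 7.08% passed as higher and 6.6% as lower in the difference of responses, HMLE-Twist minus HMLE-pBp. Of this list 6 of 22 genes passed as higher and 0 as lower. Among them were SLC7A5 and SLC3A2, the 2 chains of the exchanger that imports leucine and other large amino acids, at 1.68 ± 0.30 and 1.34 ± 0.23, PYCR1 at 1.29 ± 0.27, the glutamine carrier SLC1A5 at 1.19 ± 0.28 and ALDH18A1, the first enzyme of proline synthesis, at 0.87 ± 0.12. SLC7A5 averaged 144 ± 13.9 and 62.1 ± 18 FPKM in HMLE-Twist with salinomycin and mock, against 2110 ± 570 and 2800 ± 313 FPKM in HMLE-pBp.

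Of the list of GCN2 and eIF2 control, 2 of 8 tested rose in both lines and 0 fell, against 13.0% of all genes higher in HMLE-Twist and 9.67% in HMLE-pBp. With the replicate number as a block within each line 4 rose in HMLE-pBp. Without the block, the 2 that rose in both lines were EIF2AK3 and PPP1R15A. EIF2AK3, which encodes PERK, stood at 1.26 ± 0.11 and 1.22 ± 0.11. PPP1R15A, a phosphatase subunit that reverses the phosphorylation of eIF2, stood at 1.71 ± 0.32 and 1.33 ± 0.32. In HMLE-pBp with salinomycin PPP1R15A had 44.9 FPKM in replicate 1 and 14.3 and 14.4 FPKM in the others. EIF2AK4, which encodes GCN2, stood at -0.01 ± 0.13 and 0.03 ± 0.13. Of the partners of tRNA charging, 0 of 10 tested were higher and 2 lower in HMLE-Twist (median -0.13), and 1 was higher and 2 lower in HMLE-pBp (median -0.18); in limma 2 and 3 of the 10 passed at an unadjusted p under 0.05. These counts lie near the 26.4% and 19.0% of all genes called in either direction. GATC, a subunit of the mitochondrial glutaminyl-tRNA amidotransferase, fell in both lines, by 0.32 (SE 0.08, adjusted p = 0.00972) and 0.28 (SE 0.08, adjusted p = 0.0298). MTFMT, which formylates the mitochondrial initiator methionyl-tRNA, fell by 0.35 (SE 0.10, adjusted p = 0.0209) in HMLE-Twist. AIMP1, a scaffold of the multisynthetase complex, fell by 0.28 (SE 0.09, adjusted p = 0.0399) in HMLE-pBp. SEPSECS, which makes selenocysteinyl-tRNA, rose by 0.35 ± 0.08 in HMLE-pBp.

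Of 10 mitochondrial translation factors 0 were higher and 1 lower in HMLE-Twist (median -0.16, with 2 at an unadjusted p under 0.05 in limma), and 1 was higher and 1 lower in HMLE-pBp (median -0.08). Of all genes 13.0% were higher and 13.4% lower in HMLE-Twist, and 9.67% and 9.33% in HMLE-pBp, so these counts lie near the shares of all genes. With the block within each line 2 were lower in HMLE-Twist, and 2 were higher and 3 lower in HMLE-pBp. GFM2, the recycling factor of the mitochondrial ribosome, was the fall in both lines, at -0.37 ± 0.08 (adjusted p = 0.00546) and -0.28 ± 0.08 (adjusted p = 0.0303). Between the lines 5 of the 10 were higher in HMLE-Twist and 4 lower, both with salinomycin and with mock, where 63.2% and 73.3% of all genes were called. TUFM, the elongation factor that brings charged tRNA to the mitochondrial ribosome, was lower in HMLE-Twist by -0.56 ± 0.11 with salinomycin and -0.86 ± 0.11 with mock, and TSFM, its exchange factor, was higher by 0.57 ± 0.08 and 0.68 ± 0.08. Of 4 cytosolic elongation factors 1 rose in each line, against 13.0% of all genes in HMLE-Twist and 9.67% in HMLE-pBp. EEF2 rose by 0.46 ± 0.14 in HMLE-Twist (adjusted p = 0.026). Without mock replicate 1 of that line 0 of the 4 rose there, and 0 also without its salinomycin replicate 1. EEF1A1, which carries charged tRNA to the ribosome, rose by 0.34 ± 0.09 in HMLE-pBp (adjusted p = 0.0277), where the block within each line gave 2 that rose.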

How the data were processed

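Stranded, paired mRNA sequencing was done on 12 libraries, and the authors' processing used DESeq2 (version string 1.1.0) and the build hg19, per the submitters' processing notes. Which aligner, counting program and annotation were used is not given in the sources used here. FPKM fill the deposited mock tables. The deposited salinomycin tables hold log2 values that go below 0 and whose spread within a table was shrunk. Each of the 4 tables has 26364 genes and was normalized separately by the authors.

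Whole reads were therefore recovered. Mock FPKM are whole multiples of 1 step per gene, which gives reads and length. Among 12928 genes above 100 reads in the mock tables, 682 had no settled length and were left out. The shrinkage of the salinomycin tables was inverted, and 98.2% (HMLE-Twist) and 95.5% (HMLE-pBp) of values came within 0.1 of a whole read. FPKM were rebuilt with median-of-ratios size factors over 12 libraries. The 11515 of 17215 genes that reached 1 FPKM in 3 or more libraries entered limma 3.58.1 (trend) on log2(FPKM + 1), all groups in 1 fit, Benjamini-Hochberg adjusted p under 0.05; the added 1 understates changes of low genes. Both steps were also run on simulated data. The simulated salinomycin tables were made with the fitted shrinkage itself, so they cannot show that the authors' shrinkage had this form. The simulated reads for limma had no deviation shared by libraries of the same replicate number, unlike the real ones.

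Samples with the same replicate number deviated together within each line. In HMLE-Twist their correlations were 0.435 to 0.721, against -0.52 to 0.122 for different numbers. In HMLE-pBp they were 0.222 to 0.599, against -0.574 to 0.057. Between the lines the same numbers gave 0.035 to 0.669, and different numbers gave up to 0.278. Blocked values are therefore given for the synthetase genes and for some of the lists. The labels give no pairing. Promoters come from RefSeq (GRCh38.p14), matched by symbol. Outside the 35 genes, those named are called members of the 5 lists with up to the 5 largest changes per list and comparison, plus ATF4, DDIT3, ASNS, EIF2AK4 and XPOT. The members and lists were chosen with earlier results of these data known. Python 3.11.15 and R 4.3.3 were used.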

Additional observations from a re-analysis of the deposited data

Results flagged for a closer look

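The salinomycin response of 5 of the 35 synthetase genes differed between the lines in the limma test of the difference, HMLE-Twist minus HMLE-pBp, a count close to the 13.7% of all genes tested. On the log2 scale the difference was 0.80 for MARS, 0.79 for EPRS, 0.63 for QARS, 0.74 for MARS2 and -0.58 for DARS. MARS and QARS moved in opposite directions in the lines and passed in each. QARS lost its call in HMLE-Twist without any of 6 libraries. In HMLE-pBp MARS lost its call without any of 4 libraries and QARS without any of 2. EPRS and DARS passed in HMLE-Twist, and MARS2 in HMLE-pBp. DARS lost its call in HMLE-Twist without any of 5 libraries, and its difference was also lost without any of 5. The differences of MARS, EPRS, QARS and MARS2 were called under every alternative run for them. Between the lines, HMLE-Twist over HMLE-pBp, EPRS, MARS and QARS stood at -0.04, -0.09 and 0.00 with salinomycin and at -0.83, -0.88 and -0.62 with mock.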

How the results depend on the processing

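Of 21 alternative settings, 2 were chosen after seeing the data (no gene left out for its length, and limma with voom weights on the recovered reads), and the planned edgeR and DESeq2 fits were not run. No member changed direction past the threshold, no scaling moved the median of all genes by more than 0.05, and TMM factors changed no count of members by over 1.5 times. Fitting only the groups compared gave in HMLE-Twist 5 cytosolic genes higher and 1 lower and 0 mitochondrial genes lower, in HMLE-pBp 0 mitochondrial genes higher and 2 lower, and 3 cytosolic genes higher in HMLE-Twist against HMLE-pBp with salinomycin. A filter at a mean FPKM of 5 removed PARS2 and VARS2. With no filter 0 mitochondrial genes were higher in HMLE-pBp and 2 cytosolic genes lower in the difference. With voom 0 mitochondrial genes were lower in HMLE-Twist and 0 higher in HMLE-pBp.

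The replicate block across lines gave 1 mitochondrial gene higher and 2 lower in HMLE-Twist, 3889 genes called in HMLE-pBp, 5 cytosolic genes higher and 2 lower, 2 mitochondrial higher and 1 lower and 3347 genes in the difference, 5 cytosolic and 2 mitochondrial higher between the lines with mock, and 4 cytosolic higher with salinomycin. The replicate block within each line gave 1 mitochondrial gene higher, 4 lower and 4672 genes in HMLE-Twist, 4229 genes in HMLE-pBp, and 5 cytosolic higher and 3 lower, 2 mitochondrial higher and 1 lower and 3733 genes in the difference.

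Leaving out 1 library at a time gave in HMLE-Twist 4 to 9 cytosolic genes higher, 0 to 2 lower and 0 to 2 mitochondrial lower. In HMLE-pBp it gave 2 to 8 cytosolic genes higher, 0 to 3 lower, a cytosolic median of 0.155 to 0.276, 0 to 1 mitochondrial higher, 1 to 5 lower and 1104 to 3039 genes called. In the difference it gave 3 to 5 cytosolic genes higher, 0 to 2 lower, medians of -0.122 to 0.023 (cytosolic) and 0.119 to 0.235 (mitochondrial), 1 to 2 mitochondrial higher and 757 to 2317 genes. Between the lines with mock it gave 3 to 5 cytosolic higher, 1 to 2 mitochondrial higher and a cytosolic median of -0.126 to 0.013, and with salinomycin 1 to 3 cytosolic higher and a mitochondrial median of -0.328 to -0.192. The cause of these moves was not tested. The members had 100 reads or more in every library, and each group had 3 libraries.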
